A study of Chlamydomonas reinhardtii with 15 samples.

Results

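In 3 strains of the unicellular green alga Chlamydomonas reinhardtii, 211 of 14557 transcript models had lowered signal ratios of sulfur-starved over 0 h RNA. On each of 11 arrays, their ratio was at least 2-fold below the array median. The models were chosen by this ratio. For every array, M is the log2 ratio of starved over 0 h signal minus the median ratio of that array, averaged over those of the model's probes that were well above background in either channel. Of 7643 models with M on all 11 arrays, 223 (2.92%) had M of -1 or less on all of them. Of these, 12 were left out because the study names them as antenna or photosystem subunits, as the carbonic anhydrase CAH1, as phosphate or sulfate transporters (PTB2, SLT3) or as the proton pump PMA2. Because the ratios of these 11 arrays selected the models, starved against 0 h is described for these strains and not tested.

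The 11 arrays covered the wild type cc3491 and the wild type 4A+ at 24, 48, 72 and 96 h without sulfur, and npq4 at 24, 48 and 96 h. The npq4 strain is an insertional mutant that lacks both LHCSR3 genes, which encode stress-related chlorophyll-binding proteins, and 4A+ served as its control. A further 4 arrays of the wild type cc125 at 24, 48, 72 and 96 h took no part in the choice. Cells grew in TAP, a medium that contains acetate, and the 0 h RNA of each array came from the early stationary culture of the same strain before sulfur was removed. Biological samples were pooled before labelling, there was 1 array per strain and time point, and each strain lay on 1 slide of its own. Strain, slide and 0 h culture therefore cannot be told apart, and the spread given below is over time points. LHCSR3 was checked first, and 0 of its 3 probes were above background in either channel on the 3 npq4 arrays, whereas it was detected in the starved channel on all 4 arrays of each other strain.

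Sulfur enters the cell as sulfate and is needed for cysteine, methionine, glutathione and sulfolipids. Starved Chlamydomonas cells take up and scavenge sulfate, stop dividing and are known to reduce photosynthesis and overall protein synthesis. The cell swims with a pair of cilia (flagella) whose microtubule core carries many associated proteins, and its wall consists largely of hydroxyproline-rich glycoproteins.

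Across the 211 models the median of the mean M was -1.95 in cc3491, -2.46 in 4A+ and -2.43 in npq4. Over all 7643 models the corresponding medians were -0.11, -0.46 and -0.26. By array, the median of the 211 models ran from -1.84 at 72 h to -2.03 at 48 h in cc3491, from -2.35 at 24 h to -2.71 at 72 h in 4A+, and from -2.39 at 48 h to -2.46 at 96 h in npq4. The share of all models at -1 or less on a single array lay between 15.8% and 20% in cc3491, between 23.7% and 26% in npq4 and between 30.9% and 36.1% in 4A+. The highest of a model's 11 values, which decides whether it enters the set, fell on a given cc3491 array for 24 to 37 models and on a given array of the other strains for 7 to 20. The median mean M over the 11 arrays was -2.35, a ratio 5.11-fold below the array median. In 153 models it was -2 or less and in 29 it was -3 or less.

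**Figure D1:**
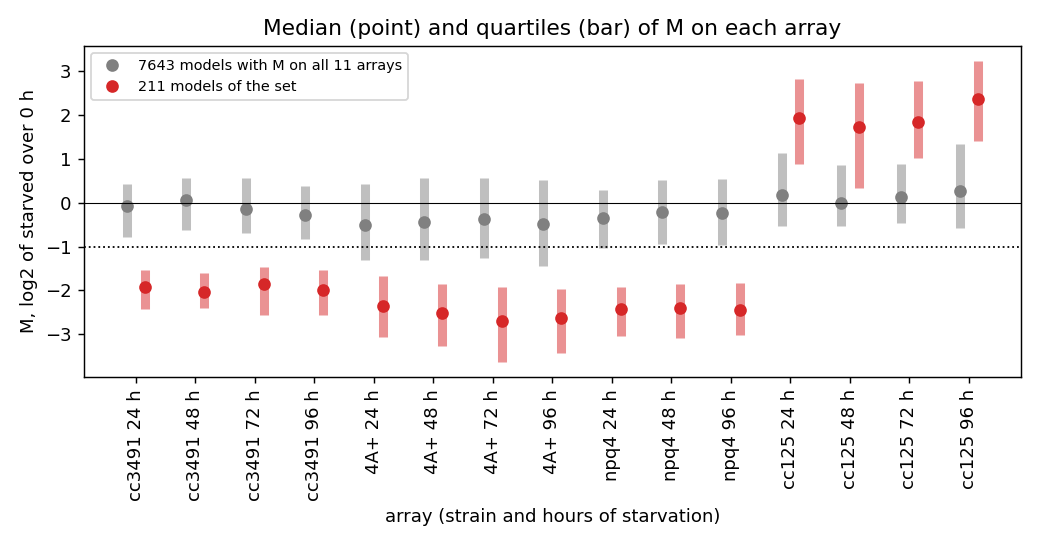
Median (point) and quartiles (bar) of M, the log2 ratio of starved over 0 h signal minus the array median, for the 211 models of the set and for all 7643 models with M on all 11 arrays, by array. The dotted line marks M of -1. The medians of the set lie between -1.84 and -2.71 on the 11 arrays of cc3491, 4A+ and npq4 and between 1.74 and 2.37 on the 4 cc125 arrays.

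**Figure D2:**
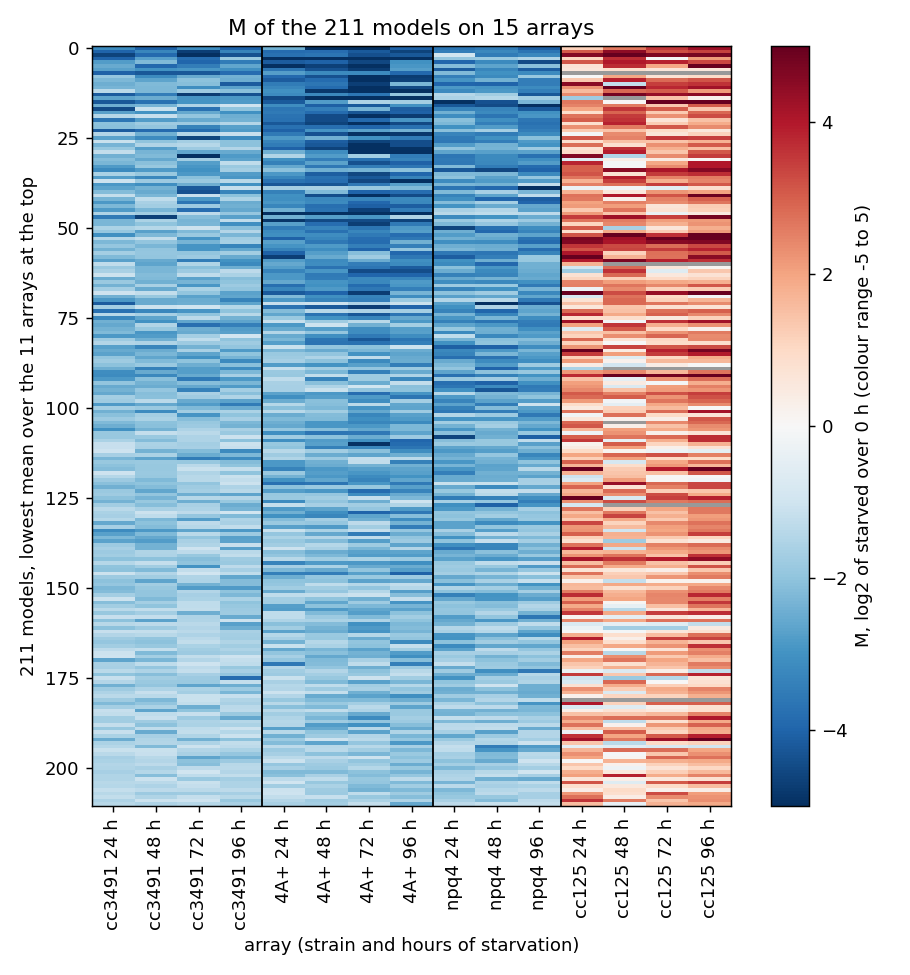
M of each of the 211 models (rows, lowest mean over the 11 arrays at the top) on the 15 arrays (columns, by strain and hours of starvation). Blue is a lower and red a higher starved signal, relative to the array median. The colour range ends at -5 and 5, and grey marks models with no probe above background on that array. Every cell of cc3491, 4A+ and npq4 is blue, by the rule, and most cells of cc125 are red.

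At the edge of the set, the values that decided were close together. Just inside were model 193344, whose highest M was -1.0003 at 96 h in cc3491, FAP260 with -1.0018 at 72 h in cc3491 and model 136069 with -1.0062 at 72 h in 4A+. Just outside were models 133099 (-0.9999), 24171 (-0.9915) and 175858 (-0.9897), all with their highest M at 24 h in cc3491.

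The size of M depends on how dim spots are treated. In 4A+, the starved channel was above background on all 4 arrays for 118 of the 211 models, on some arrays for 31 and on none for 62. The last number was 7 in npq4 and 1 in cc3491. For a model without starved signal only a bound can be given, as the mean 0 h level over the higher of the dim level and the lowest level measured above background on each array. In 4A+ a bound above 1 could be given for 53 of the 62 models. These bounds ranged from at least 1.09-fold to at least 7.41-fold lower, and 34 of the 62 reached 2-fold. With background correction by normexp and loess normalization, 41 of the 211 models kept M of -1 or less on all 11 arrays. On those values the mean M was -1 or less for 167 of the 211 models in cc3491, 104 in 4A+ and 142 in npq4. Below 0 on all 11 arrays were 208 of the 211, and 12% of all models. As the same spots had chosen the models, the count of 208 follows largely from the choice. A probe saturated in the 0 h channel on all arrays of a strain, for which M is only a limit, occurred in 16 members in cc3491 (among them GAP3, NRX2, FNR1, TEF7, 60238 and 108283), in 2 in 4A+ (TUB2 and 60238) and in 3 in npq4 (GAP3, 60238 and 108283). Under all 6 alternative treatments of the spots, 37 of the 211 models stayed in the set.

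The rule averaged the probes of a model, so low values of the separate probes follow in part from it and are given as a description. Of 183 models with at least 2 probes measured on all 11 arrays, 177 had every probe mean at -1 or less and 2 had a probe mean above 0. For the 109 models with 3 such probes, the median was -2.36 for probe 1, -2.53 for probe 2 and -2.27 for probe 3, which was taken over from an older array. With probes 1 and 2 only, 160 of the 211 models remained in the set.

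A symbol was available for 33 of the 211 models and a symbol or a described product for 60. The symbols were taken from lists of models that the study reported as changed under nitrogen or sulfur starvation, and also from its annotation of probe specificity. How many came from each source was not counted, so models known to change may be over-represented. Counts over named groups are therefore no independent evidence, and they are set beside the share among all models with a symbol: of 268 such models with M on all 11 arrays, 33 (12.3%) were in the set, and their median mean M was 0.84.

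Ciliary genes formed the biggest named group. Of 18 models with a ciliary symbol, 14 were in the set, the median mean M of the 18 was -2.35, and all 18 were below 0, compared with 44.4% of all models with a symbol and 65.4% of all models. Of 19 models described as flagellar, 13 were in the set and 18 were below 0, with a median of -2.12. Apart from CDC48, these 13 are FAP models already counted by symbol, so the lists overlap and are no separate support. TUB2 encodes beta tubulin, a building block of the ciliary microtubules. Its M was -1.93, -3.13, -2.52 and -2.38 at 24, 48, 72 and 96 h in cc3491, -3.87, -4.35, -5.87 and -4.74 in 4A+, and -3.40, -3.19 and -1.91 at 24, 48 and 96 h in npq4. All 4 values of 4A+ lay below all values of the other strains. The mean over the 11 arrays was -3.39, and in 4A+ it includes 1 probe that was saturated in the 0 h channel.

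The FAP genes encode proteins found in the isolated cilium, most of them without a known molecular task. FAP7 had M of -1.23, -2.31, -2.61 and -2.54 over time in cc3491, -2.39, -3.12, -5.51 and -5.22 in 4A+, and -2.65, -2.72 and -2.70 in npq4. Its 3 npq4 values differed by less than 0.1, whereas the later 4A+ arrays were the lowest of all 11. FAP138 had mean M of -2.41, -3.69 and -2.19 in cc3491, 4A+ and npq4, with SDs of 0.45, 0.82 and 0.22 (n = 4, 4 and 3). FAP7, FAP138 and TUB2 belonged to the 37 models that no treatment of the spots removed. CDC48, an ATPase that pulls proteins out of complexes and that the tables list as flagella-associated, was among the 37 as well, with a mean M of -2.78 over the 11 arrays.

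Other ciliary members rest on weaker signal in 4A+. FAP71 had means of -2.83 ± 0.23 (SD, n = 4) in cc3491 and -2.87 ± 0.40 (SD, n = 3) in npq4. In 4A+, without starved signal above background, it was at least 7.05-fold lower by the bound, while its mean M there was -0.89 with normexp and loess. The bounds given here and below therefore hold only for the levels they were computed from. FAP152 was at least 2.98-fold lower in 4A+ and FAP110 at least 2.67-fold lower. FAP276, with means of -2.07, -3.22 and -3.23 in cc3491, 4A+ and npq4, had starved signal on 2 of the 4 arrays of 4A+. PF16 is a protein of the central microtubule pair that is needed for motility, and its starved signal was not above background on any array of cc3491 or 4A+. It was at least 3.45-fold lower in cc3491, and no bound above 1 could be given for it in 4A+. FAP139 and FAP250 also had no bound above 1 in 4A+, and FAP198 was at least 1.09-fold lower there. FAP151 and FAP275 had starved signal on 1 of the 4 arrays of 4A+, and their means in cc3491 were -1.89 and -2.36.

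**Figure D3:**
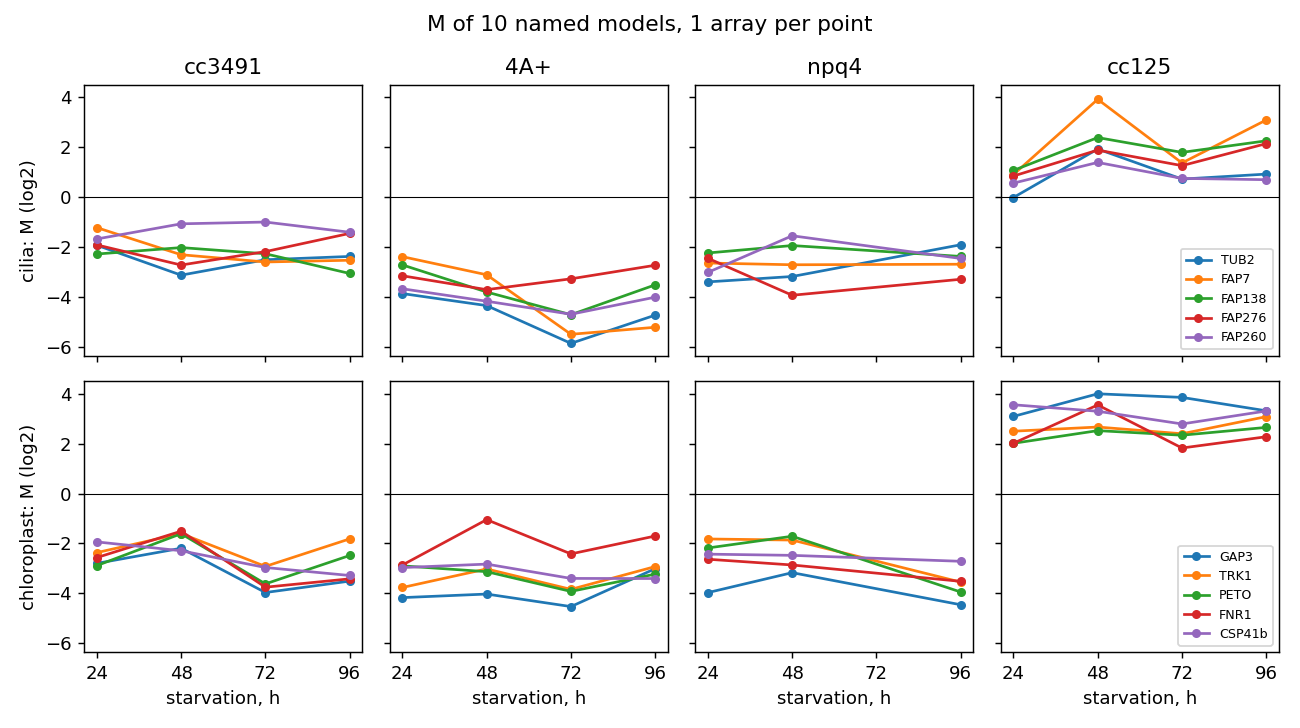
M (log2) of 5 ciliary models (top row) and 5 chloroplast models (bottom row) against hours of starvation, with 1 panel per strain and 1 array per point. All points of cc3491, 4A+ and npq4 are at -1 or less. The lowest point is TUB2 at 72 h in 4A+ with -5.87, and on the cc125 arrays all points but TUB2 at 24 h are above 0.

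Genes of the chloroplast were the next group. The photosystem and antenna genes had been left out by name, so the group here is carbon fixation, electron transport outside the photosystems and RNA handling. GAP3, the chloroplast glyceraldehyde-3-phosphate dehydrogenase of the Calvin cycle, had M of -2.80, -2.19, -3.97 and -3.51 in cc3491, -4.17, -4.03, -4.53 and -3.01 in 4A+, and -3.97, -3.17 and -4.46 in npq4. The 3 strains overlapped, and 1 probe of GAP3 was saturated in the 0 h channel in cc3491 and in npq4. TRK1, the transketolase of the same cycle, had mean M of -2.18, -3.39 and -2.41 in cc3491, 4A+ and npq4, with SDs of 0.59, 0.48 and 0.99 (n = 4, 4 and 3).

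Model 60238 lies at a locus annotated as the small subunit of Rubisco, the carbon-fixing enzyme. It had M of -1.45, -1.24, -2.95 and -1.73 in cc3491, -4.06, -3.27, -3.82 and -3.56 in 4A+, and -2.42, -2.56 and -3.70 in npq4. In each of the 3 strains 2 of its probes were saturated in the 0 h channel, so these values are limits and the strains were not compared. Probes of model 108283, with a mean of -3.16, match several transcripts including that locus, so the signals of the copies cannot be separated. Of the 3 Calvin cycle models with a symbol, 2 were in the set and all 3 were below 0. Of the 4 models for electron transport and the chloroplast ATP synthase, 2 were in the set and 3 were below 0.

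PETO, subunit V of the cytochrome b6f complex, which passes electrons between the photosystems, had mean M of -2.65, -3.30 and -2.61 in cc3491, 4A+ and npq4, with SDs of 0.84, 0.44 and 1.18 (n = 4, 4 and 3). FNR1, the ferredoxin-NADP reductase that ends linear electron flow, had means of -2.81, -2.01 and -3.01, and its value at 48 h in 4A+ was -1.04. FNR1 stayed in the set under 2 of the 6 alternative treatments and PETO under all 6. The chloroplast RNA-binding proteins CSP41a and CSP41b, both among the 37, had mean M of -2.17 and -2.79 over the 11 arrays. The inorganic pyrophosphatase IPY3 had a mean M of -2.08 and was the 1 member among the 3 models for starch and central carbon, whose median was 2.25. The small lists for chlorophyll and haem synthesis (3 models with M), the cytosolic ribosome (1), cell cycle and DNA replication (1) and histones (28) contributed 0 members, and the histone median was 1.84.

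The 5 models with the lowest means were 195824 (-3.91), 141578 (-3.83), LCR1 (-3.78), 195937 (-3.74) and GAP3 (-3.62). LCR1 is a Myb-type regulator of genes induced by low CO2. Its M was -4.61, -3.89, -4.98 and -4.37 in cc3491, -3.72, -3.66, -4.38 and -4.23 in 4A+, and -1.01, -3.49 and -3.22 in npq4, so that the 24 h array of npq4 stood apart from the other 10. Its starved signal in 4A+ was above background on 2 of 4 arrays. The 24 h array of npq4 put LCR1 near the edge of the set, and LCR1 stayed in it under 1 of the 6 alternative treatments. Model 195937, a hydroxyproline-rich glycoprotein, had M of -4.0, -2.73, -3.82 and -1.91 in cc3491, -5.35, -5.61, -6.37 and -6.05 in 4A+, and -1.94, -1.85 and -1.51 in npq4. The 4A+ values lay below all others, with starved signal above background on 3 of the 4 arrays, and the other strains overlapped. Model 141578, which carries no description, had means of -3.83, -4.12 and -3.44.

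A few members with a described product act in RNA or protein synthesis, and no share is given for them because they were picked by description. Model 206023, similar to the ribosome assembly factor pescadillo, had mean M of -2.68, -2.20 and -4.26 in cc3491, 4A+ and npq4, with SDs of 0.66, 0.19 and 0.28 (n = 4, 4 and 3), and its 3 npq4 values lay below all others. The nucleolar protein 190833 had means of -1.60 in cc3491 and -3.69 in npq4, and was at least 1.42-fold lower in 4A+, where its starved signal was not above background. IF2Be, the beta subunit of a translation initiation factor that brings the initiator tRNA to the ribosome, had means of -1.72 in cc3491 and -2.16 in npq4 and was at least 2.26-fold lower in 4A+. The RNA helicase RHE had means of -3.26 and -2.88 in these strains and was at least 2.48-fold lower in 4A+.

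Among redox, transport and metabolic genes, the nucleoredoxin NRX2 had means of -3.40, -2.94 and -2.88 in cc3491, 4A+ and npq4 and belonged to the 37. ARS5 is described as similar to arylsulfatases, enzymes that release sulfate from organic compounds, and some members of that family are known to be induced when sulfur is short. Its M was -2.04, -1.78, -1.80 and -1.46 in cc3491, -4.23, -4.62, -5.02 and -4.52 in 4A+, and -2.25, -3.41 and -3.73 in npq4. Its 3 strains did not overlap in these averages over probes, with the lowest values in 4A+. Probes 1 and 2 had means of -3.73 and -3.28 over the 11 arrays. Probe 3 was measured on 4 arrays only, with a mean of 0.07. As the probes averaged differ between arrays, the order of cc3491 and npq4 cannot be read from these values. The membrane protein ERM1 had a mean of -3.19 over the 11 arrays, the citrate synthase CIS2 -2.46 and the matrix metalloproteinase MMP3 -2.48. The probes of ERM1 disagreed, with means of -4.52, -4.75 and -0.28 for probes 1, 2 and 3. CBLE, a methionine synthase reductase, had means of -1.65 in cc3491 and -1.66 in npq4, and no bound above 1 could be given for it in 4A+. Model 115491, a putative acetate transporter, had means of -2.39 ± 0.34 (SD, n = 4) in cc3491 and -2.65 ± 0.07 (SD, n = 3) in npq4. By the bound it was at least 4.25-fold lower in 4A+, where its mean M was -0.49 with normexp and loess.

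Most members did not lie beside each other on the chromosomes. Of 183 members with a RefSeq locus, 156 neighbouring loci had M on all 11 arrays, and 6 of these (3.85%) were members themselves, compared with 2.85% of all loci with M. The 3 neighbouring pairs were model 82986 with the Rubisco model 60238, the putative acetate transporter 115491 with model 100620, and IPY3 with FAP139.

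Whether starvation affected the set equally in the 3 strains was examined with limma over 7869 models, of which 206 were members. In npq4 minus 4A+, 2 of 206 members were called at a Holm adjusted p below 0.05 and a difference of at least 2-fold, both higher in npq4, compared with 2.39% of all models called and 1.94% called higher. Model 190269 had M of -5.40, -5.15, -5.23 and -5.0 in 4A+ and -1.39, -1.26 and -1.33 in npq4. The groups were far apart, with a difference of 3.87 ± 0.44 (SE) and a limma Holm adjusted p of 0.000886. Model 189270 had M of -4.88, -4.53, -4.46 and -4.61 in 4A+ and -1.87, -1.55 and -1.80 in npq4, a difference of 2.88 ± 0.33 (SE) at a limma Holm adjusted p of 0.000818. Both models had starved signal above background on every array. For 189270 the limma Holm adjusted p was 0.0941 with normexp and loess, with a difference of 1.70.

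The arrays of npq4 and 4A+ did not overlap for 43 of the 211 members with npq4 higher and for 29 with npq4 lower, compared with 20% and 16.2% of all models. With Benjamini-Hochberg in place of Holm adjustment 44 members were called (22.7% of all models), 27 of them higher (13%) and 17 lower (9.71%). The median difference of the members was 0.28, beside 0.09 for all models. With normexp and loess it was -0.25, beside 0.01 for all models. There, 3 members were called higher and 5 lower, compared with 1.93% of all models called. Of the 44 members called with Benjamini-Hochberg, those higher in npq4 included 195937, TUB2, FAP138, FAP260, LCR1 and IPY3. Model 195937 had a difference of 4.08 ± 0.68 (SE) and a limma Holm adjusted p of 0.113. Of the 27 higher in npq4, 4 had no starved signal above background in 4A+, and 1 had a saturated 0 h probe in either strain. Of the 17 lower in npq4, 6 had no starved signal above background in 4A+, where their level is only a limit. Those measured in both strains included 206023 and 188120 (myo-inositol-1-phosphate synthase).

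In 4A+ minus cc3491, 6 of 206 members were called, all lower in 4A+, compared with 3.75% of all models called, 2.61% called lower and 1.14% called higher. With Benjamini-Hochberg adjustment 53 members were called (29.7% of all models), 3 higher (9.89%) and 50 lower (19.8%). Of the 50 lower, 6 had no starved signal above background in 4A+, and 6 had a saturated 0 h probe in either strain. Of the 3 higher, these counts were 1 and 1. The arrays did not overlap for 66 members with 4A+ lower (22.3% of all models) and for 7 with 4A+ higher (11.4%). Called by Holm were 190269, 183178, FAP260, 146275, 189270 and 187818. Model 190269 differed by -3.56 ± 0.41 (SE) and model 183178 by -2.90 ± 0.42 (SE), with limma Holm adjusted p of 0.000945 and 0.0238. FAP260, a membrane protein of the cilium, had M of -1.68, -1.07, -1.0 and -1.41 in cc3491 and -3.68, -4.18, -4.70 and -4.02 in 4A+. Its difference was -2.85 ± 0.35 (SE) at a limma Holm adjusted p of 0.00273. The median difference of the members was -0.54, beside -0.31 for all models. The direction depended on the background correction. With normexp and loess the median was 0.37, beside -0.05 for all models, and 18 members were called higher and 2 lower (2.64% of all models called). Of these 20, 1 was among the 6. FAP260 and 183178 were not among the 2, with differences of -0.57 and -0.73. Leaving out 1 array of cc3491 (24, 48 or 72 h) or of 4A+ (48, 72 or 96 h) left 3 calls, and 2.28% to 2.62% of all models.

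In npq4 minus cc3491, 0 of 206 members were called by limma with Holm adjustment (0.419% of all models, 0.152% higher and 0.267% lower). An unadjusted p below 0.05 was found for 49 members, and its share over all models was not computed. With Benjamini-Hochberg adjustment 8 were called (7.35% of all models). Of these, 7 were lower in npq4 (4.94% of all models), including 206023 and 190833, and 1 was higher (2.4%), LCR1 with 1.89 ± 0.48 (SE). The arrays did not overlap for 58 members with npq4 lower (16.5% of all models) and for 5 with npq4 higher (10.2%). The median difference of the members was -0.43, beside -0.17 for all models. With normexp and loess it was 0.07, beside -0.03, and 1 member was called, higher in npq4 (0.394% of all models called). As 4A+ and cc3491 each enter a pair of these comparisons, the comparisons share arrays. The strain with the lowest mean was 4A+ for 117 members (55.5%, beside 46.4% of all models), npq4 for 76 (36%, beside 31.6%) and cc3491 for 18 (8.53%, beside 22%). These counts include the 62 members without starved signal in 4A+, and they depend in part on the rule, which used the same ratios. With normexp and loess the median of the members was -1.38 in cc3491, -0.96 in 4A+ and -1.29 in npq4. The range of a member's 3 strain means had a median of 1.06, beside 1.08 over all models, and was 2 or more in 30 members.

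**Figure D4:**
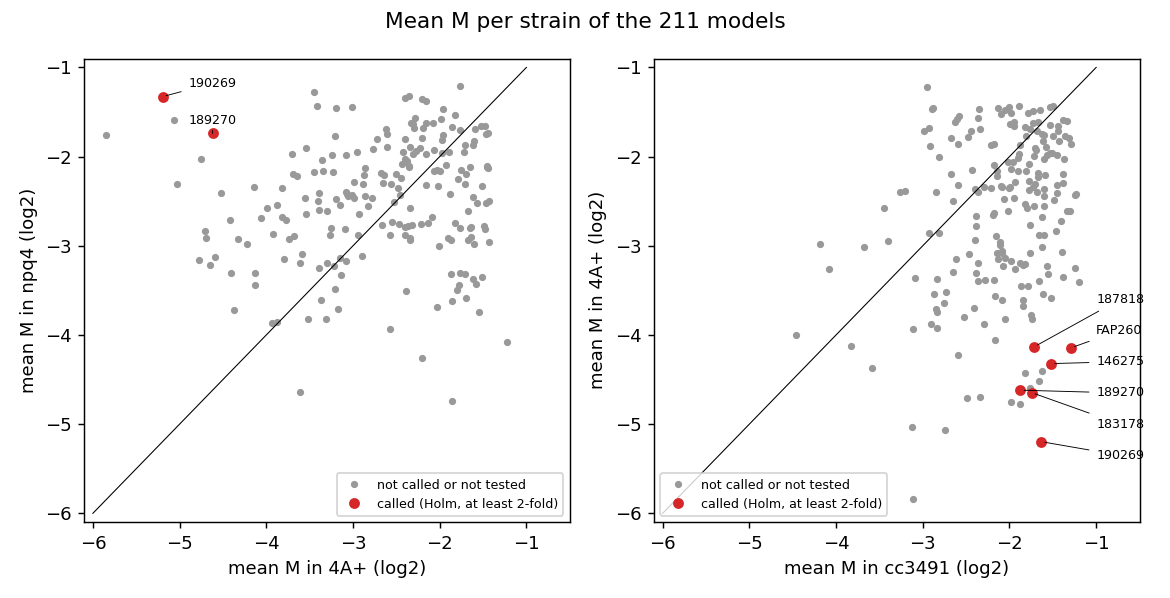
Mean M (log2) per strain of the 211 models, with npq4 against 4A+ on the left and 4A+ against cc3491 on the right. Red points with identifiers are the models called by limma (Holm adjusted p below 0.05 and at least 2-fold), 2 on the left and 6 on the right, and the line marks equal means.

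Over starvation time, 0 of 211 members had a called slope in limma with strain as a fixed effect, as did 0% of the 7946 models tested. An unadjusted p below 0.05 was found for 15 members, and its share over all models was not computed. Benjamini-Hochberg adjustment called 0 members and 0.0252% of all models, all upward. The steepest member was 188940, listed as a predicted protein. Its M was -4.23, -3.74, -2.98 and -2.83 over time in cc3491, -4.21, -2.80, -1.54 and -1.74 in 4A+, and -5.14, -4.37 and -2.27 in npq4. The lowest value of each strain was at 24 h, and the slope was 0.77 ± 0.12 (SE) per 24 h with a limma Holm adjusted p of 0.211. With normexp and loess this model was called, with a slope of 0.73 and a limma Holm adjusted p of 0.0393. FAP7 had the steepest downward slope, -0.52 ± 0.17 (SE) per 24 h, at a limma Holm adjusted p of 1. The median slope of the members was -0.04, beside -0.01 for all models.

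The 4 cc125 arrays, which the choice did not use, gave values of the opposite sign. Over 7869 models the mean M of cc125 correlated with that of cc3491 at r = -0.53, with 4A+ at -0.31 and with npq4 at -0.38, whereas the other strains correlated with each other at 0.59 to 0.69. These are correlations across models, which are no independent replicates. The labels give cc125 the same dyes as the other strains. The slide number in the headers of the 4 cc125 files differs from that in their labels, while it was the same for all arrays of the other strains. The direction of the cc125 ratios is therefore not settled, and every value below is to be read with the sign turned as well.

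As labelled, the median of the members' cc125 means was 1.93, beside 0.16 for all models. In limma against 0, 96 of 206 members (46.6%) were called higher, compared with 7.09% of all models, and 0 were called lower, compared with 1.47% (8.57% either way). With Benjamini-Hochberg adjustment 164 members were called higher (23% of all models) and 0 lower (8.82%, and 31.8% either way). An unadjusted p below 0.05 was found for 186 members, and its share over all models was not computed. With the sign turned, the same 96 members are called lower and the median is -1.93. Of 209 members with M in cc125, 146 were above 0 on all 4 arrays. The share of all models above 0 on all 4 was not computed. The variation between 0 h cultures does not enter the test, and the spread is shared with the other strains. The median SD of the members over arrays was 0.80 in cc125, beside 0.41 in cc3491, 0.45 in 4A+ and 0.42 in npq4. The shared spread is therefore too small for cc125, and its calls are too many on that account. With the 4 cc125 arrays alone 6 members were called, and 0.241% of all models. Without the 96 h array 62 were called, and 4.64% of all models.

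The highest cc125 means belonged to 60238, the Rubisco small subunit model, with M of 4.73, 4.21, 5.44 and 5.45, to 187814 with a mean of 4.77, to LCR1, to 147968 with 4.55 and to TEF7 with 4.47. LCR1 had M of 4.57, 4.98, 4.68 and 4.74, and a limma Holm adjusted p of 2.95e-07. GAP3 had a mean of 3.57 ± 0.43 (SD, n = 4) and TRK1 of 2.67 ± 0.30 (SD, n = 4), both called. TUB2 had M of -0.02, 1.93, 0.72 and 0.92 and was not called, and neither was FAP7 with a mean of 2.32 ± 1.42 (SD, n = 4). Only 12 of the 209 members had a mean below 0. The lowest were PF16 (-1.58, measured on 1 array), 189576 (-0.93), 176405 (-0.88, measured on 1 array), 169796 (-0.83), 181136 (-0.76) and FAP250, whose M was -0.48, -0.58, -0.76 and -1.0.

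**Figure D5:**
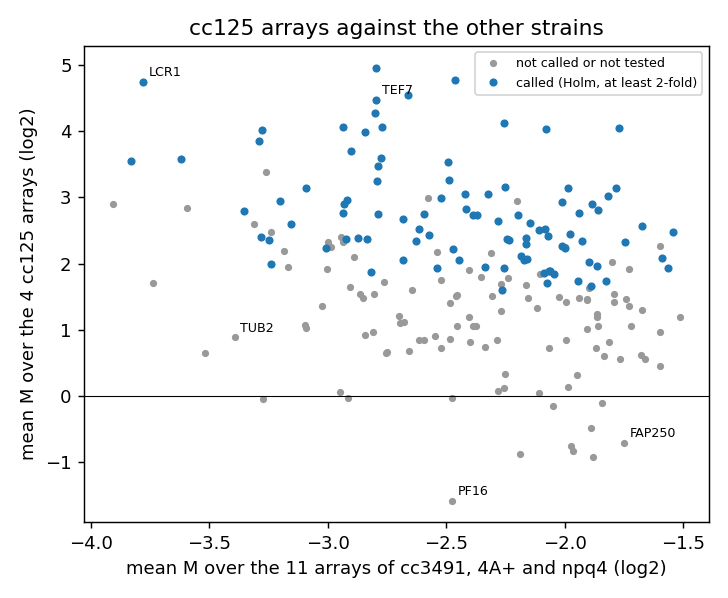
Mean M over the 4 cc125 arrays against mean M over the 11 arrays of the other strains (both log2), with 1 point per model. Blue points are the 96 members called by limma (Holm adjusted p below 0.05 and at least 2-fold), and the sign of the vertical axis is not settled. LCR1 and TEF7 are near the top, and PF16 is the lowest point.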

How the data were processed

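Transcripts were measured on Agilent 2-colour arrays with 43687 probes for 14557 JGI transcript models (version 3.1). The deposited files give, per spot, processed signal intensities in both channels, which Agilent Feature Extraction 10.7.3.1 had background-subtracted and dye-normalised (linear and lowess) and in which low spots carry substitute values. The deposited series table holds the log10 ratio of the same intensities, which was equal to that in the scanner files. M was computed as log2 of red over green minus the array median over all model probes. Spots marked as controls or as outliers did not enter. On the 15 arrays, 16775 to 29190 of 43783 model spots were above background in green and 8797 to 26685 in red, the fewest on 4A+, so precision is limited by the number of arrays and by signal over background.

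Fits used limma 3.58.1 in R 4.3.3 (lmFit, eBayes) over all 15 arrays with 1 coefficient per strain (slopes over 11 arrays, without cc125), on models with M on at least 3 arrays of every strain. Models were called at a Holm adjusted p below 0.05 and, except for slopes, at least 2-fold, after the study's methods. P-values measure the spread between time points only. Fits were also run on simulated data with shifts planted in independent normal noise. That noise held no dim-spot substitution and no slide effect, so it does not test these limits. Bounds for models without starved signal used channel levels after Aquantile normalization, which are open to dye bias. They are not lower limits under other background corrections.

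The members, the lists and the rule for naming genes were chosen with earlier results of these data known. Named were members with a symbol or product, the 5 lowest means, the 3 models on either side of the limit, up to 3 called members per direction and comparison, and the 5 highest and lowest cc125 means. Symbols came from the study's tables and loci from RefSeq (assembly version 5.5), which paired 183 members. In 1 table, 79 of 263 numeric names did not match their identifier, so names found only there were not used. Alternatives were normexp (offset 50) with loess, 2 other centrings, outlier-marked spots kept, probes 1 and 2 only, probes above background in both channels, other adjustments and sample sets, and leaving out each array. Of the scanner files, 0 columns belonged to other series.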

Additional observations from a re-analysis of the deposited data

Results flagged for a closer look

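Within groups of 4 arrays, 142 sets of values from 48 members were examined for a value far from the other 3, and 3 were found, where chance would be expected to mark about 1 in 20 groups. IF2Be had M of 0.31 on the 48 h array of cc125, while its other values there were 3.36 or more. Model 181136, which has no description, had M of -2.70 at 96 h in cc3491, beside -1.38 for the next lowest array, and of -3.05 at 72 h in 4A+, beside -2.25.

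Some members differed between strains by the tested contrast itself. In npq4 minus 4A+ the differences were 3.87 for model 190269 and 2.88 for 189270. In 4A+ minus cc3491 they were -3.56 for 190269, -2.90 for 183178, -2.85 for FAP260, -2.80 for 146275, -2.75 for 189270 and -2.42 for 187818. Both comparisons use the same 4A+ arrays.

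In cc125, 146 members were above 0 on all 4 arrays, whereas they were at -1 or less on all arrays of the other strains by the rule. The difference was not tested, the share of all models was not computed, and the direction of the cc125 ratios is not settled.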

How the results depend on the processing

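The number of members was 211. It was 41 with normexp and loess, 98 when arrays were centred on probes above background, 105 with only probes above background in both channels and 13 with M of -2 or less, and 214 to 243 when 1 array was left out. It stayed within 1.5 times the count without centring (168, of which 166 were among the 211), with outlier-marked spots kept (210) and with probes 1 and 2 only (209, of which 160 were among the 211).

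Calls were recounted over the same members. For cc125 the 96 calls became 51 with normexp and loess (5.08%) and 164 with Benjamini-Hochberg (31.8%). With both channels above background 46 of 127 members tested were called (9.63%), and with its own arrays only 6 (0.241%). Leaving out 1 array gave 62 to 111 (4.64% to 11.8%). For npq4 minus 4A+ the 2 calls became 8 with normexp and loess (3 higher, 5 lower, 1.93%) and 44 with Benjamini-Hochberg (22.7%). They were 4 of 211 with the arrays of the strains compared only (1.65%) and 0 of 211 with time as a replicate block (0.32%). Leaving out 1 array gave 2 to 3 (1.28% to 2.04%). For npq4 minus cc3491 the 0 calls became 1 with normexp and loess (0.394%) and 8 with Benjamini-Hochberg (7.35%). They stayed 0 of 211 with the replicate block (0.0119%) and were 0 to 1 when 1 array was left out (0.14% to 0.295%). For 4A+ minus cc3491 the 6 calls became 20 with normexp and loess (2.64%) and 3 when centred on probes above background (3.29%). They were 53 with Benjamini-Hochberg (29.7%) and 1 of 211 with the replicate block (1.82%). Leaving out 1 array gave 3 to 7 (2.28% to 2.98%). For the slope, normexp and loess gave 1 call (0.0252%), and leaving out 1 array gave 0 to 0 (0% to 0.0129%). The other alternatives gave counts within 1.5 times these.

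Arrays of the same hour did not deviate together between strains, with correlations across models of -0.14 to 0.19, so the block gives no paired test. Centring on probes above background moved the median of all models in 4A+ from -0.46 to 0.12. Of the named called differences, 0 turned direction under any alternative run. Dim starved signal limits 4A+ most.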
